A study of Homo sapiens with 6 samples.

Results

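Semaphorins, slits, ephrins, netrins and their receptors are guidance genes: they encode secreted or membrane-bound cues that steer axons, vessels and migrating cells, and the surface proteins that read those cues. They were followed here in human foreskin fibroblasts (HFF) brought into oncogene-induced senescence. Members were taken from the gene table by symbol alone: semaphorins of classes 3 to 7, plexins, neuropilins, slits, robos, ephrins, Eph receptors, netrins and the UNC5 receptors. This gave 68 genes of 59050 entries, 35 of them ligands and 33 receptors. Of the 68, 44 reached a mean of 1 TPM (a transcript level scaled to the library total and already divided by transcript length) over the 6 libraries and were tested. The other 24 are accounted for at the end.

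Class 3 semaphorins are secreted and act through a neuropilin that binds the cue and a plexin that signals, while the other classes are mostly membrane proteins that bind plexins directly. Slits are secreted and bind robo receptors. Ephrins are themselves membrane-anchored, so that they signal at cell contacts, and A-type ephrins bind mainly EphA and B-type ephrins mainly EphB receptor kinases. Netrins are laminin-related secreted proteins read by UNC5 receptors, among others. In fibroblasts these families are known for contact repulsion, cell migration and matrix attachment.

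The cells had been infected at about passage 18 with a lentivirally packaged vector, pLNC ER:RAS, a fusion of H-RAS (G12V) with part of the oestrogen receptor, and stable lines were selected with 200 µg/ml neomycin. How many clones the lines hold is not said. One group received 100 nM 4-hydroxytamoxifen (4-OHT), which switches the fusion on, and was harvested a week later as senescent cells. The other is labelled DMSO, the usual solvent control, and each group has 3 RNA-seq libraries. The series description names no other line, so both groups were taken to carry the vector. Cells without it were not analysed here, so the action of RAS and that of 4-OHT itself cannot be told apart.

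All 10 fibroblast markers were above 1 TPM, with a summed level of 19101 to 19509 TPM in 4-OHT and 20227 to 20826 in DMSO (3 rose and 7 fell). The 9 endothelial markers summed to 2.67 to 4.17 against 2.78 to 3.34 TPM, and only TEK, which fell, had a mean above 1 TPM over the 6 libraries. The 10 neuronal markers summed to 49.8 to 51.7 against 16.8 to 20.1 TPM, with ELAVL4 at 0 in all libraries. Only 6 of the 10 were tested, of which 4 rose and 1 fell. Schwann cell and melanocyte markers summed to 2.82 to 3.80 against 5.69 to 7.85 TPM, with TYR and DCT at 0, and immune markers to 5.78 to 11.1 against 3.02 to 4.90, with AIF1 at 0. Keratinocyte markers summed to 32.8 to 43.2 against 37.5 to 52.5 TPM, with KRT1 at 0, and smooth muscle markers to 269 to 272 against 310.4 to 322. Of 3 tested Schwann cell and melanocyte markers 2 fell, of 2 tested keratinocyte markers 1 fell, and the 1 tested immune marker rose. Of 4 tested smooth muscle markers 1 rose and 2 fell. Over all tested genes 19.8% rose and 29.9% fell. The part of these cell types in the results was not tested. In bulk RNA, fewer cells of a type and less RNA per cell cannot be told apart.

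The guidance genes moved in both directions. Of the 44 tested, 13 rose and 17 fell in 4-OHT at an adjusted p under 0.05 (limma, adjusted over all 15272 genes tested). That is 29.5% and 38.6% of the members, where 19.8% of all tested genes rose and 29.9% fell. At least 1 log2 unit of change was reached by 4 that rose and 8 that fell (4.22% and 8.21% of all tested genes). In 35 members (79.5%) the libraries of the groups did not overlap, as in 59.0% of all tested genes. The median log2 fold change was -0.14, against -0.09 over all tested genes. Log2 fold changes here are 4-OHT minus DMSO on log2(TPM + 1), a scale that shrinks the change of genes near 1 TPM and below. SEMA3D, SLIT3, PLXNC1 and SEMA4D passed the filter only through their DMSO level, so these counts describe the members and support no claim about them as a set. Separate cultures are not stated for the replicates, and p-values here speak only of the spread among 6 libraries, which may be technical.

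**Figure D1:**
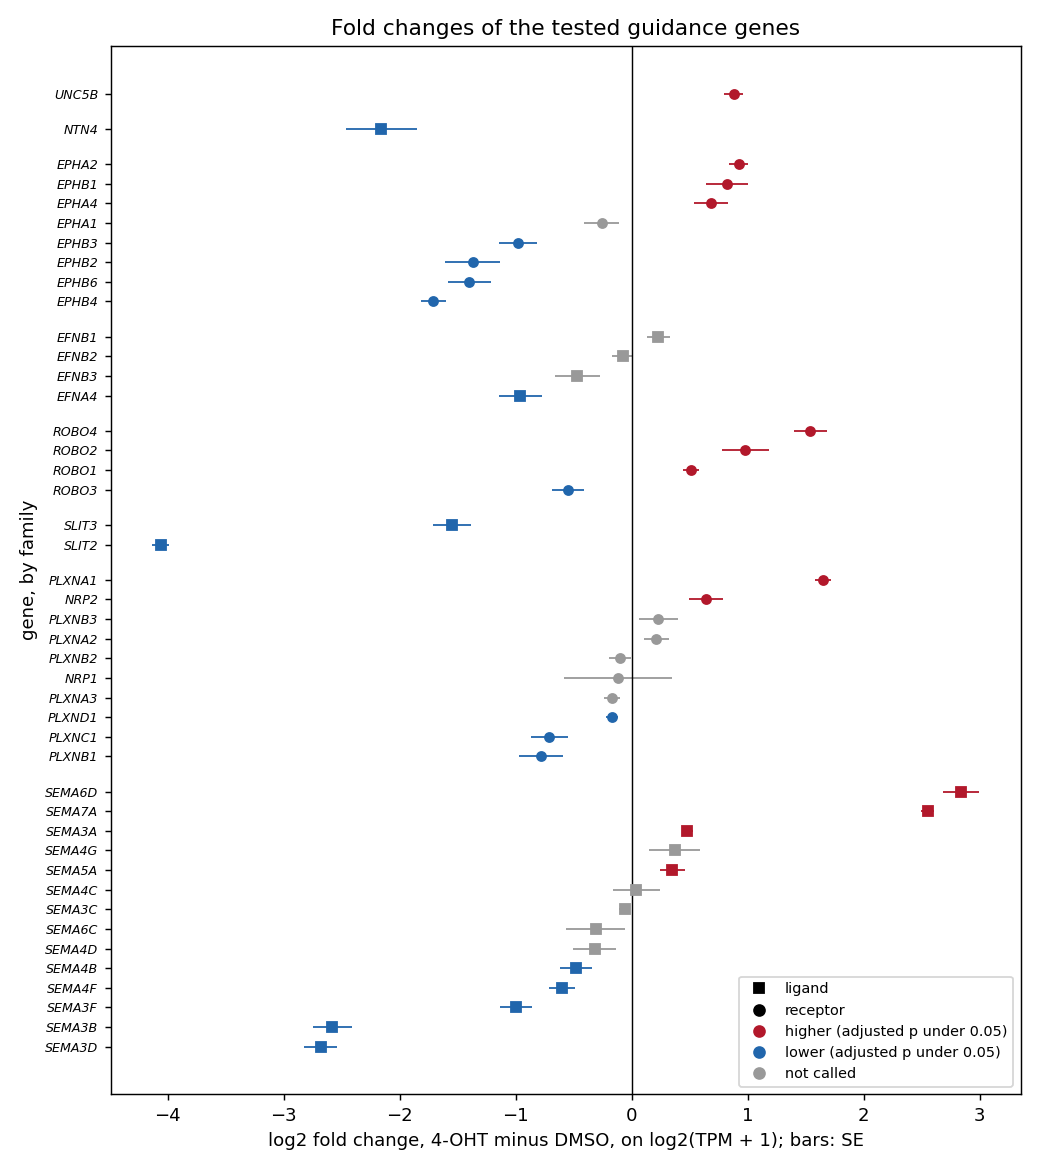
Log2 fold change (4-OHT minus DMSO, on log2(TPM + 1), x axis) of each of the 44 tested guidance genes, grouped by family (y axis). Squares are ligands, circles receptors, bars the standard error, red genes rose, blue genes fell and grey genes were not called. SLIT2 lies farthest to the left at -4.06 and SEMA6D farthest to the right at 2.84.

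Promoter sequence was at hand for 40 of the 44 tested members (RefSeq, GRCh38.p14). The 250 bases before the annotated start are shown for a ligand and a receptor that rose (SEMA7A and EPHA2) and for a receptor and a ligand that fell (EPHB4 and SLIT2), as examples chosen after their values were seen. Each is written 5′ to 3′ on the gene's own strand, and capitals mark matches to the motifs named after them. The windows are chr15:74433959-74434208 (minus strand, SEMA7A), chr1:16156070-16156319 (minus strand, EPHA2), chr7:100827524-100827773 (minus strand, EPHB4) and chr4:20251655-20251904 (plus strand, SLIT2). The RefSeq start of SLIT2 lies upstream of the start of the gene in GENCODE 29 (20253260).
SEMA7A: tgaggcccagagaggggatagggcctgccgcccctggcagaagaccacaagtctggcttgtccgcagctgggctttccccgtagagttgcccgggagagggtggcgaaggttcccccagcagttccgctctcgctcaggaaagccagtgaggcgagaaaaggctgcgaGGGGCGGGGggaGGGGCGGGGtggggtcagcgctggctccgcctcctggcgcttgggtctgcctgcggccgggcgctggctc
EPHA2: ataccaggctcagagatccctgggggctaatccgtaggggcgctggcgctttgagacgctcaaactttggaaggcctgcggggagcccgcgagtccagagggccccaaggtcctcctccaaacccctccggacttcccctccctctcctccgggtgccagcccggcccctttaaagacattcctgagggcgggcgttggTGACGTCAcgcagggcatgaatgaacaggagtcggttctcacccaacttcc
EPHB4: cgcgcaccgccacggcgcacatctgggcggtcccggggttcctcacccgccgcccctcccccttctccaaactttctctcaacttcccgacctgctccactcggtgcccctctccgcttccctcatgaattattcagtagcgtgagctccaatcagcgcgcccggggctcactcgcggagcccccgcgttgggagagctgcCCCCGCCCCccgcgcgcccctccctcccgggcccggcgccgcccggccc
SLIT2: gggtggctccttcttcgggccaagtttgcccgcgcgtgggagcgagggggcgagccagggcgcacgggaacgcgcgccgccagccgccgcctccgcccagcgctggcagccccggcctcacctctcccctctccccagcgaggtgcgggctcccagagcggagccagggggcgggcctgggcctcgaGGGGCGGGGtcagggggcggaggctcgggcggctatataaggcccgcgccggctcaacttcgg

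These windows were searched on both strands for an AP-1 site (TGANTCA), a CRE (TGACGTCA), an ETS site (CCGGAAGT), an E-box (CACGTG) and a GC box (GGGGCGGGG). No motif contains another, though copies of the GC box can overlap. SEMA7A held 2 GC boxes, EPHB4 and SLIT2 held a GC box each, and EPHA2 held a CRE. Over the members with a promoter, the GC box was found in 4 of 11 that rose, 8 of 17 that fell and 5 of 12 that were not called. It was found in 15.4% of 27305 promoters, which are not limited to tested genes. The member windows ran from 36.4% G and C (SEMA3C) to 88.8% (PLXND1), where the median over all promoters was 58.0%. The part of base composition in these shares was not tested. The AP-1 letters were found in 0 of 11 that rose and in 1 of 17 that fell (PLXNC1), against 6.6% of all promoters. The PLXNC1 window starts at 94262369, well inside the gene, which starts at 94148723 in GENCODE. Windows of several other members also lie inside the GENCODE gene, among them EPHB1, ROBO2, SEMA4C and SEMA4D. The same holds for SEMA4B, ROBO3 and ROBO4, which count among the GC box matches. All motif counts here thus refer to RefSeq windows, which need not lie at the outermost start of a gene. The CRE letters stood in EPHA2 and in SEMA4C, which was not called, and in 1.77% of all promoters. The E-box stood in SEMA6D, which rose, and in SEMA4D, which was not called, and in 6.49% of all promoters. The ETS letters stood in none of these members and in 3.64% of all promoters. A match is a match of letters only, and its absence says only that the letters are not in this window.

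Among the semaphorin ligands the GPI-anchored SEMA7A and the transmembrane SEMA6D rose most, while the secreted SEMA3B, SEMA3D and SEMA3F fell most. The secreted SEMA3A rose too, as did SEMA5A, and the transmembrane SEMA4B and SEMA4F also fell. Of 14 tested ligands 4 rose (28.6%), 5 fell (35.7%) and 5 were not called, where 19.8% of all tested genes rose and 29.9% fell. Among them SEMA3D, which fell, and SEMA4D, which was not called, passed the filter only through their DMSO level. Their summed level was 534 ± 12.2 TPM in 4-OHT and 262 ± 4.72 in DMSO (mean ± SD, n = 3 libraries each, as for all such values here). SEMA7A made up 63.2% ± 1.12 of that sum in 4-OHT and 21.7% ± 1.12 in DMSO.

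SEMA7A (chromosome 15, 74409289 to 74433958, minus strand, GENCODE 29 on GRCh38, as for the other positions) is read by plexin C1 and by beta-1 integrins. It was measured at 337, 346 and 329 TPM in the 4-OHT libraries and at 60.9, 54.6 and 55.5 in the DMSO libraries. Every 4-OHT library was far above every DMSO library, a 5.92-fold difference of means (adjusted p = 1.72e-07, log2 fold change 2.55 with SE 0.0532). It was the most abundant of all 68 members in 4-OHT, and ranked 92 of the 15272 tested genes from the highest log2 fold change.

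SEMA6D (chromosome 15, 47184101 to 47774223, plus strand), a ligand of plexin A1, was at 17.7, 18.1 and 21.2 TPM in 4-OHT and at 1.32, 2.31 and 1.83 in DMSO. The groups were well apart, with a 10.5-fold difference (2.84, SE 0.154, adjusted p = 8.67e-06). SEMA3A, the secreted cue that makes axonal growth cones collapse, rose by far less, from 36.4 ± 0.377 to 51.0 ± 0.609 TPM (0.48, adjusted p = 0.000187). Its libraries did not overlap. SEMA5A rose from 26.0 ± 2.92 to 33.4 ± 3.63 TPM (0.35, adjusted p = 0.0355), a call that was lost under several settings, up to an adjusted p of 0.123.

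The falling ligands were led by SEMA3D and SEMA3B. SEMA3D (chromosome 7, 84995553 to 85186855, minus strand) was at 0.344, 0.507 and 0.374 TPM in 4-OHT and at 7.13, 8.96 and 8.0 in DMSO. The 4-OHT libraries were all below 1 TPM, 19.7-fold under DMSO by the means (log2 fold change -2.68, SE 0.142, adjusted p = 7.73e-06). SEMA3D passed the filter only through its DMSO level. SEMA3B (chromosome 3, 50267558 to 50277546, plus strand), known as a candidate tumour suppressor, was at 2.91, 3.64 and 5.23 TPM in 4-OHT and at 27.5, 26.9 and 29.3 in DMSO. Again no library of one group reached the other (-2.58, SE 0.167, adjusted p = 1.99e-05). These ranked 60 and 76 from the lowest of all tested genes. SEMA3F, which acts through NRP2, was at 5.29, 7.1 and 5.49 TPM in 4-OHT and at 11.1, 13.5 and 14.0 in DMSO. It fell by just under 1 log2 unit before rounding (-1.0, adjusted p = 0.000868), so it is not among the 8 counted above.

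The class 3 ligands did not move as one. SEMA3C was at 47.9 ± 0.601 TPM in 4-OHT and 49.8 ± 1.14 in DMSO (-0.06, SE 0.0482, adjusted p = 0.38), beside the rise of SEMA3A and the fall of SEMA3B, SEMA3D and SEMA3F. Summed over class 3, the level was 109 ± 1.59 against 135 ± 3.16 TPM. Class 4 members are transmembrane proteins. SEMA4F fell (5.86 ± 0.346 against 9.42 ± 1.17, adjusted p = 0.00387), as did SEMA4B (6.80 ± 1.28 against 9.77 ± 0.829, adjusted p = 0.0257). SEMA4B was no longer called with either other scaling (adjusted p = 0.0593 by median of ratios, 0.161 by quantiles) or with no filter on low values (0.0846). SEMA4C, the ligand of plexin B2 (log2 fold change 0.04), SEMA4D (-0.32), SEMA4G (0.37) and SEMA6C (-0.31) were not called, with adjusted p from 0.201 to 0.883. In SEMA4G, 22.3% of the exonic bases lie antisense to exons of MRPL43 (38.2 to 101 TPM), and the strand setting of the counting is not given in the sources used here, so its level is uncertain.

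**Figure D2:**
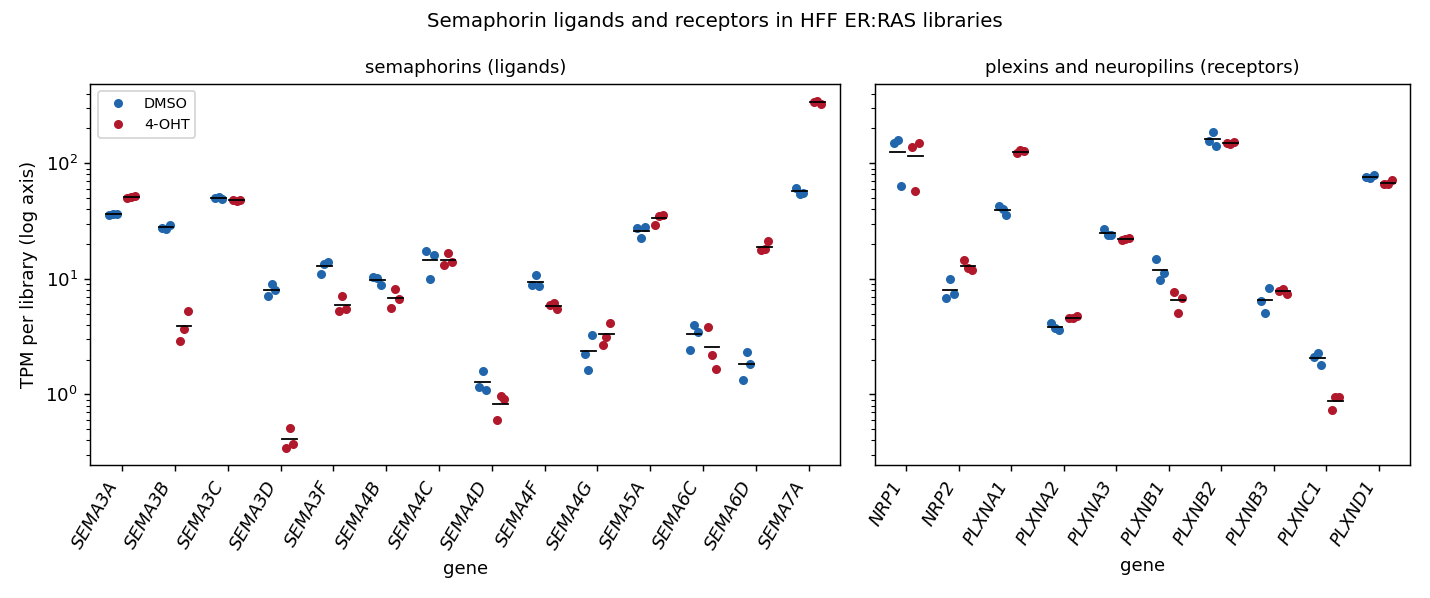
TPM in each library (log axis) of the 14 tested semaphorins (left) and the 10 tested plexins and neuropilins (right), with DMSO in blue, 4-OHT in red and a black line at each group's mean of 3 libraries. SEMA7A, SEMA6D and PLXNA1 are higher in every 4-OHT library, SEMA3B and SEMA3D lower, and NRP1 has 1 low library in each group.

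Of the 10 tested semaphorin receptors, plexin A1 rose most, and the most abundant receptors in DMSO, PLXNB2 and NRP1, were not called. In all, 2 rose, 3 fell and 5 were not called, shares close to the 19.8% and 29.9% of all tested genes that rose and fell. PLXNA1 (chromosome 3, 126988594 to 127037392, plus strand), the signalling partner of neuropilin for SEMA3A and a receptor of SEMA6D, was at 122, 129.6 and 127 TPM in 4-OHT and at 42.3, 40.3 and 35.9 in DMSO. Every 4-OHT library lay well above DMSO, 3.20-fold by the means (log2 fold change 1.65, SE 0.0692, adjusted p = 2.66e-06). The related PLXNA2 (4.61 ± 0.0993 against 3.86 ± 0.276, adjusted p = 0.154) and PLXNA3 (22.1 ± 0.587 against 25.0 ± 1.80, adjusted p = 0.0971) were not called, and PLXNA2 was called higher under quantile normalization (adjusted p = 0.0105) and without a variance trend (0.0431).

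The neuropilins differed from each other. NRP2, the co-receptor preferred by SEMA3F, rose from 8.01 ± 1.65 to 12.9 ± 1.51 TPM (0.64, adjusted p = 0.0105, or 0.0501 with no filter on low values). NRP1, the co-receptor of SEMA3A and of VEGF, was at 139.5, 57.2 and 151 TPM in 4-OHT and at 151, 159.6 and 63.7 in DMSO. In each group a single library was well under the others (4-OHT replicate 2 and DMSO replicate 3), and the groups overlapped (log2 fold change -0.12, SE 0.463, adjusted p = 0.855). Without 4-OHT replicate 2 the value was 0.33 (adjusted p = 0.532) and without DMSO replicate 3 it was -0.54 (0.332), so its direction could not be fixed from these libraries.

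None of the B, C and D plexins rose. PLXNC1, the plexin that binds SEMA7A, was at 0.730, 0.940 and 0.944 TPM in 4-OHT and at 2.11, 2.26 and 1.79 in DMSO. It was lower in every 4-OHT library (-0.71, SE 0.159, adjusted p = 0.00873), but it passed the filter only through its DMSO level. Of its exonic bases 1.79% lie antisense to exons of CEP83, at 7.25 to 9.11 TPM in 4-OHT and 10.3 to 11.5 in DMSO. With the strand setting not given, the level of PLXNC1 is uncertain. As a description, the ratio of SEMA7A to PLXNC1 was 393 ± 60.7 in 4-OHT and 28.0 ± 3.51 in DMSO. PLXNB1, the receptor of SEMA4D, fell from 11.9 ± 2.64 to 6.49 ± 1.34 TPM (-0.78, adjusted p = 0.0115, or 0.0604 with no filter on low values). PLXND1 stood at 67.6 ± 3.26 against 76.1 ± 2.24 TPM, a small fall (-0.17, adjusted p = 0.035) that disappeared with median-of-ratios scaling (-0.05, adjusted p = 0.475). PLXNB2 was at 150.4 ± 2.28 against 162 ± 23.4 TPM (adjusted p = 0.437) and PLXNB3 at 7.78 ± 0.386 against 6.61 ± 1.68 (0.29). PLXNB3 shares 20.4% of its exonic bases with SRPK3 on the same strand, which was at 0.300 to 1.29 TPM.

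In the slit family the 2 tested ligands fell and 3 of the 4 receptors rose. Over all tested genes 19.8% rose and 29.9% fell. SLIT2 (chromosome 4, 20253260 to 20620561, plus strand), a secreted repellent, was at 3.76, 3.89 and 3.56 TPM in 4-OHT and at 78.2, 82.5 and 73.1 in DMSO. It was 20.9-fold lower in 4-OHT (adjusted p = 9.77e-08, log2 fold change -4.06 with SE 0.0749). It ranked 5 of 15272 from the lowest log2 fold change. SLIT3 (chromosome 5, 168661733 to 169301129, minus strand), at a far lower level, was at 0.138, 0.177 and 0.116 TPM in 4-OHT and at 2.42, 2.19 and 2.46 in DMSO. The 2 paralogs thus fell by a similar ratio of means, 16.4-fold for SLIT3 (-1.55, SE 0.162, adjusted p = 0.000222), though no test compared the ratios. SLIT3 passed the filter only through its DMSO level. SLIT2 made up 96.1% ± 0.711 of the summed slit level in 4-OHT and 97.0% ± 0.325 in DMSO.

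Of the robo receptors, ROBO4 rose most. ROBO4 (chromosome 11, 124883691 to 124898500, minus strand), best known from endothelium, was at 10.7, 12.9 and 13.1 TPM in 4-OHT and at 3.31, 4.32 and 3.08 in DMSO. The groups did not overlap (log2 fold change 1.54, SE 0.139, adjusted p = 0.000106). The endothelial markers CDH5 (0 to 0.0112 TPM over the 6 libraries) and VWF (0.0595 to 0.276) were near 0 in both groups, and PECAM1 was at 0.758 to 1.14 TPM in 4-OHT and 0.195 to 0.477 in DMSO. Of the 9 endothelial markers only TEK had a mean above 1 TPM, and it fell. ROBO2 rose from 8.71 ± 2.56 to 17.9 ± 2.71 TPM (0.98, adjusted p = 0.00547) and ROBO1, the main slit receptor by level, from 22.0 ± 1.26 to 31.7 ± 1.48 (0.51, adjusted p = 0.000866). ROBO3, known from axons that cross the midline, went the other way, from 19.4 ± 1.28 to 13.1 ± 2.49 TPM (-0.55, adjusted p = 0.013, or 0.0604 with no filter on low values).

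The balance of slit ligand to receptor transcripts therefore differed widely between the groups. The ratio of summed slit to summed robo TPM was 0.0549, 0.0527 and 0.0481 in the 4-OHT libraries and 1.42, 1.58 and 1.5 in the DMSO libraries. For SLIT2 against ROBO1 alone the ratio was 0.118 ± 0.00942 in 4-OHT and 3.54 ± 0.0639 in DMSO. Slit transcripts outnumbered robo transcripts in every DMSO library and in no 4-OHT library.

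**Figure D3:**
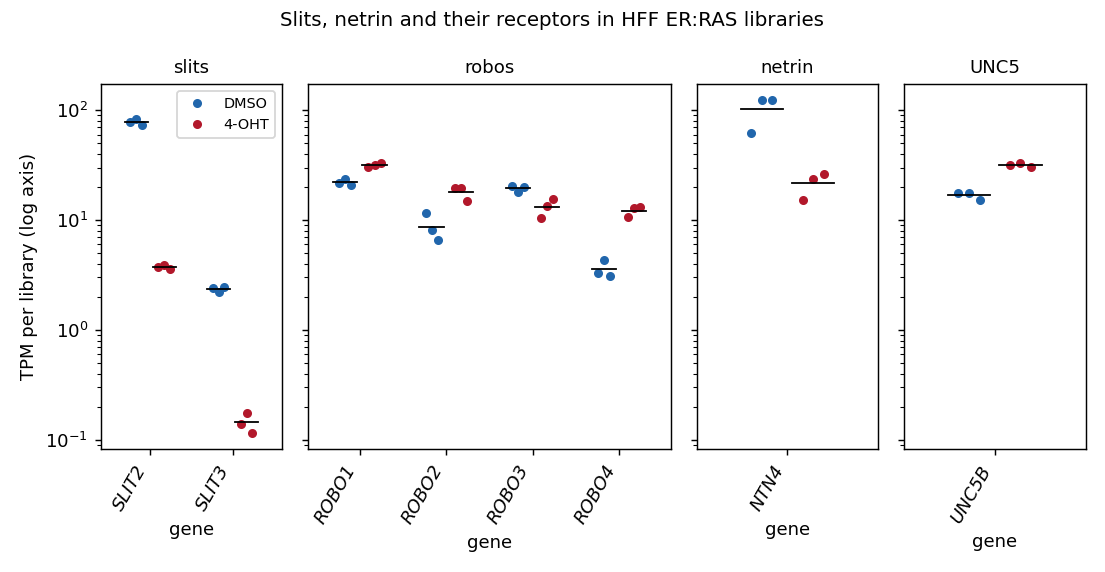
TPM in each library (log axis) of the tested slits, robos, netrin and UNC5 receptor, with DMSO in blue, 4-OHT in red and a black line at each group's mean of 3 libraries. SLIT2, SLIT3 and NTN4 are lower in every 4-OHT library and ROBO1, ROBO2, ROBO4 and UNC5B higher.

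The Eph receptors exchanged places while their sum differed little. EPHA2 and EPHA4 rose, and EPHB4, EPHB6, EPHB2 and EPHB3 fell. The summed level of the 14 Eph receptors was 119.5 ± 4.79 TPM in 4-OHT and 126 ± 4.69 in DMSO. EphA genes made up 80.9%, 80.0% and 76.7% of it in the 4-OHT libraries and 41.4%, 42.1% and 40.1% in the DMSO libraries, with no overlap.

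EPHA2 (chromosome 1, 16124337 to 16156087, minus strand), a receptor of A-type ephrins, was at 81.8, 91.2 and 81.0 TPM in 4-OHT and at 48.0, 44.2 and 40.7 in DMSO. All 4-OHT libraries were above all DMSO libraries, 1.91-fold by the means (log2 fold change 0.92, SE 0.0779, adjusted p = 7.73e-05). EPHA4, which binds ephrins of both types, rose from 4.00 ± 0.609 to 7.01 ± 0.970 TPM (0.68, adjusted p = 0.00696). EPHA1 was not called (2.90 ± 0.438 against 3.69 ± 0.570, adjusted p = 0.195). Of its exonic bases 1.73% lie antisense to exons of ZYX (375 to 486 TPM). With the strand setting not given, the level of EPHA1 is uncertain.

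EPHB4 (chromosome 7, 100802565 to 100827521, minus strand), the receptor of ephrin-B2 known from veins, was at 13.0, 15.5 and 17.6 TPM in 4-OHT and at 53.2, 50.4 and 53.1 in DMSO. It was 3.39-fold lower in 4-OHT, with no overlap (log2 fold change -1.71, SE 0.105, adjusted p = 1.57e-05). The ratio of EPHA2 to EPHB4 was 5.58 ± 0.877 in 4-OHT and 0.848 ± 0.0726 in DMSO, so that EPHB4 was the more abundant of the pair in every DMSO library and EPHA2 in every 4-OHT library. EPHB6 (chromosome 7, 142855061 to 142871094, plus strand), which lacks kinase activity, was at 2.14, 4.06 and 3.46 TPM in 4-OHT and at 10.7, 9.96 and 9.13 in DMSO (-1.40, SE 0.186, adjusted p = 0.000752). EPHB2 (chromosome 1, 22710839 to 22921500, plus strand) was at 2.70, 1.23 and 1.93 TPM in 4-OHT and at 8.66, 5.48 and 5.68 in DMSO (-1.37, SE 0.237, adjusted p = 0.00262). Both were below DMSO in every 4-OHT library. EPHB3 fell from 4.37 ± 0.677 to 1.72 ± 0.381 TPM (-0.98, adjusted p = 0.00234). EPHB1 was the exception among the EphB receptors, with a rise from 1.04 ± 0.401 to 2.58 ± 0.122 TPM (0.82, adjusted p = 0.008).

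**Figure D4:**
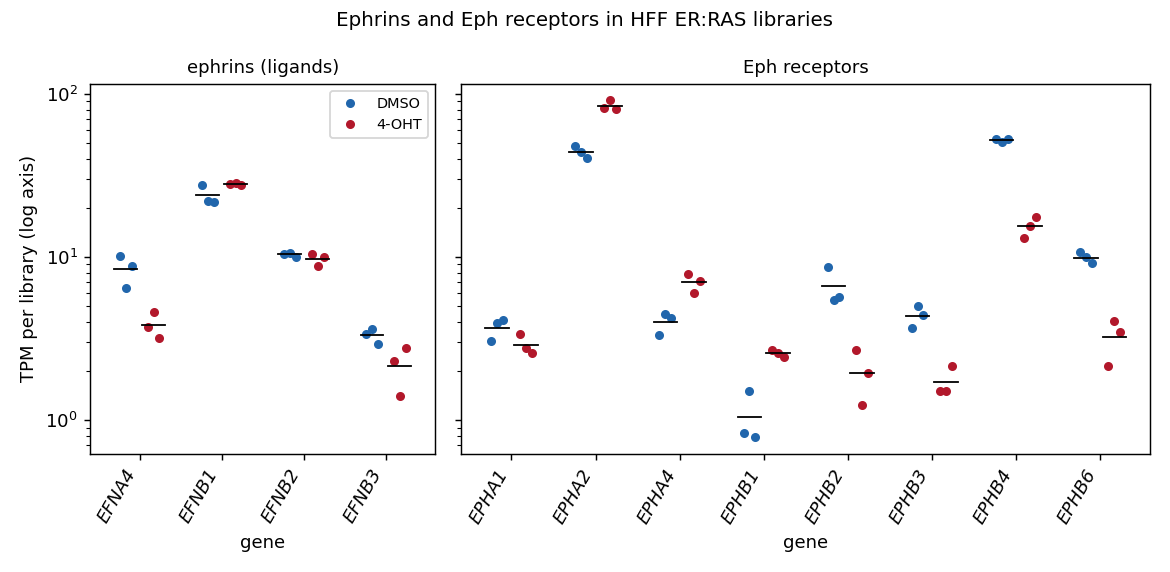
TPM in each library (log axis) of the 4 tested ephrins (left) and 8 tested Eph receptors (right), with DMSO in blue, 4-OHT in red and a black line at each group's mean of 3 libraries. EPHA2, EPHA4 and EPHB1 are higher in every 4-OHT library and EPHB2, EPHB3, EPHB4 and EPHB6 lower, while EFNB1 and EFNB2 overlap between the groups.

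The ephrin ligands changed less. EFNA4, the only A-type ephrin above 1 TPM, fell from 8.48 ± 1.92 to 3.83 ± 0.697 TPM (-0.96, SE 0.184, adjusted p = 0.00424). The B-type ephrins were not called. EFNB2 was at 10.4, 8.81 and 9.96 TPM in 4-OHT and at 10.4, 10.6 and 10 in DMSO, with overlapping groups (-0.08, SE 0.0913, adjusted p = 0.482). As EPHB4 fell, the ratio of EFNB2 to EPHB4 was 0.644 ± 0.135 in 4-OHT and 0.198 ± 0.0106 in DMSO. EFNB1 was at 28.0 ± 0.361 against 23.9 ± 3.28 TPM (0.23, adjusted p = 0.0882). It was called higher with median-of-ratios scaling (0.35, adjusted p = 0.0225), quantile normalization (0.29, 0.0435) and without DMSO replicate 1 (0.34, 0.00844). EFNB3 was at 2.16 ± 0.700 against 3.31 ± 0.368 TPM (-0.47, adjusted p = 0.0869), and was called lower without 4-OHT replicate 3 (-0.61, 0.0477). The ratio of summed ephrin to summed Eph TPM was 0.372 ± 0.0202 in 4-OHT and 0.376 ± 0.0248 in DMSO.

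**Figure D5:**
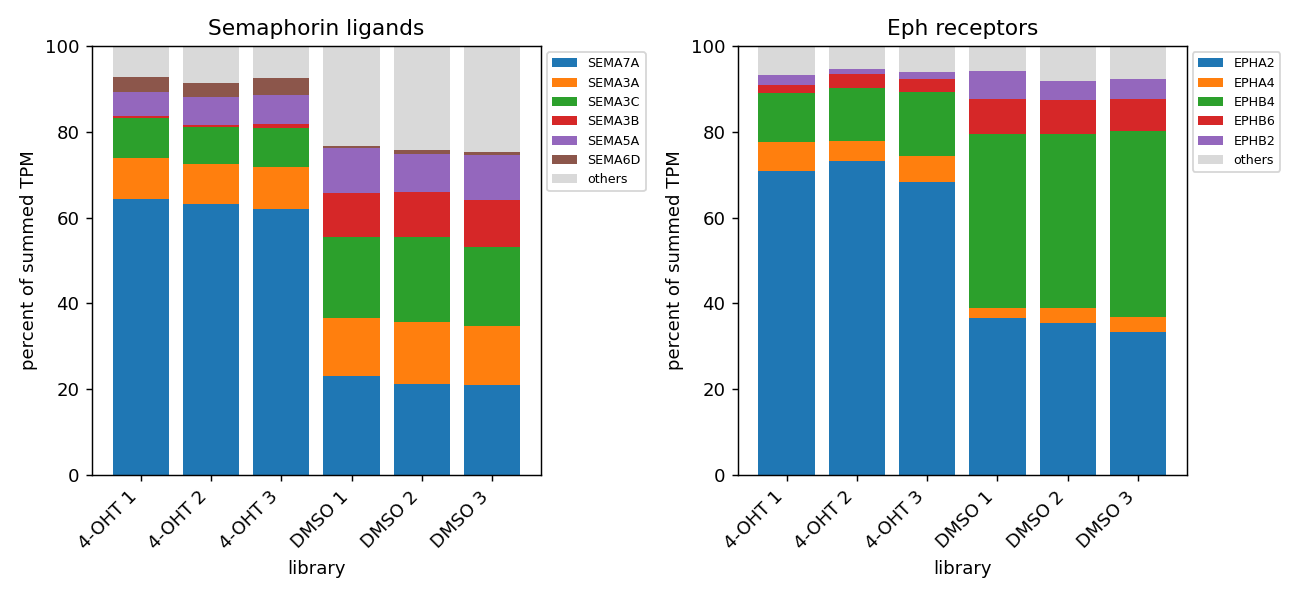
Percent of the summed TPM (y axis) taken by single semaphorins (left) and Eph receptors (right) in each of the 6 libraries (x axis), with the remaining members of each pool in grey. SEMA7A takes 62.0% to 64.3% of the semaphorin pool in 4-OHT libraries against 20.9% to 23.0% in DMSO, and EPHB4 falls from 40.4% to 43.5% of the Eph pool to 11.3% to 14.9%.

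In the netrin family a single ligand and a single UNC5 receptor reached 1 TPM, and they moved in opposite directions. NTN4 (chromosome 12, 95657807 to 95791152, minus strand), a netrin of basement membranes, was at 15.1, 23.8 and 26.3 TPM in 4-OHT and at 61.8, 123 and 123 in DMSO. DMSO replicate 1 stood well under the other DMSO libraries but above every 4-OHT library (log2 fold change -2.16, SE 0.306, adjusted p = 0.00102). Without that library the value was -2.48 (adjusted p = 0.000361). UNC5B (chromosome 10, 71212570 to 71302864, plus strand), which can signal cell death when no netrin is bound, was at 31.6, 32.8 and 30.5 TPM in 4-OHT and at 17.6, 17.8 and 15.1 in DMSO. It rose 1.88-fold (0.88, SE 0.082, adjusted p = 0.000126). The ratio of NTN4 to UNC5B was 0.480 to 0.861 in the 4-OHT libraries and 3.51 to 8.19 in the DMSO libraries.

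Set side by side, 4 of 21 tested ligands rose and 9 fell, and 9 of 23 tested receptors rose and 8 fell. For ligands that is 19.0% and 42.9%, and for receptors 39.1% and 34.8%, beside 19.8% and 29.9% of all tested genes. SEMA3D and SLIT3 among the ligands that fell, and PLXNC1 among the receptors, passed the filter only through DMSO. No test compared ligands with receptors. The median log2 fold change was -0.32 for ligands and -0.10 for receptors. Under median-of-ratios scaling these medians were -0.26 and 0.02, and with a filter of 5 TPM they were -0.08 and 0.23. With quantile normalization the ligand median was -0.11. By summed level the families differed. For semaphorins the ratio of ligand to receptor TPM was higher in every 4-OHT library, at 1.05 ± 0.139 in 4-OHT and 0.582 ± 0.109 in DMSO. For slits and netrins the ratio was lower in every 4-OHT library, and for ephrins it overlapped between the groups. The netrin receptor sum in these ratios holds UNC5 genes only and leaves out NEO1. These ratios were not tested, since the members were chosen with earlier results known.

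Proteins that work with these cues were read from 4 lists of partners. Over all tested genes 19.8% rose and 29.9% fell. Of 21 tested partners of semaphorins and plexins 4 rose and 5 fell, so that 42.9% were called, beside 49.6% of all tested genes. ITGA1, which pairs with beta-1 integrin, rose from 13.7 ± 0.637 to 49.2 ± 0.974 TPM (1.77, adjusted p = 1.23e-06). ITGB1, the beta-1 integrin itself, was at 1988, 2035 and 1206 TPM in 4-OHT and at 1422, 1647 and 1671 in DMSO. The groups overlapped (adjusted p = 0.682), with 4-OHT replicate 3 far under the other 4-OHT libraries, and the adjusted p over the alternatives ran from 0.0106 to 0.979. FYN, a kinase of semaphorin and netrin signalling, rose from 38.8 ± 2.75 to 85.1 ± 1.17 TPM (1.12). FES, a kinase downstream of plexins, fell from 6.89 ± 0.903 to 0.941 ± 0.699 TPM (-2.09), and passed the filter only through its DMSO level. ERBB2, a receptor kinase that associates with B-type plexins, fell from 39.6 ± 1.59 to 12.6 ± 1.33 (-1.59).

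Of 14 tested partners of slits and robos 4 rose and 4 fell, none by 1 log2 unit. Called genes were 57.1% of this list, beside 49.6% of all tested genes. MYO9B (58.4 ± 1.90 against 39.7 ± 1.57 TPM, log2 fold change 0.55) and ARHGAP39 (4.45 ± 0.362 against 2.75 ± 0.185, 0.54) rose most. ENAH, an actin regulator (22.6 ± 0.678 against 31.6 ± 2.69 TPM, -0.46), and DAG1, the slit-binding dystroglycan (59.6 ± 4.90 against 71.6 ± 6.14, -0.26), fell most, though the call for DAG1 was lost under several alternatives, up to an adjusted p of 0.193.

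Of 12 tested partners of ephrins and Eph receptors 4 rose and 2 fell. RGS3, which links B-type ephrins to G-protein signalling, rose from 95.3 ± 11.8 to 357 ± 23.5 TPM (1.90, adjusted p = 5.82e-06). RASA1, a RAS GTPase activator bound by EphB receptors, was at 41.6 ± 4.45 against 32.9 ± 1.10 TPM (0.32, adjusted p = 0.0152, up to 0.0533 under the alternatives). GRB10, an adaptor, fell (17.0 ± 1.70 against 24.1 ± 0.611 TPM), and so did ADAM10, the protease that cleaves ephrins (44.8 ± 3.04 against 55.6 ± 1.67). Of 14 tested partners of netrins 5 rose and 3 fell. NTNG1, a GPI-anchored relative of netrins, rose from 6.22 ± 0.159 to 17.9 ± 0.860 TPM (1.39), and ABLIM3, an actin-binding protein, from 52.2 ± 3.14 to 91.7 ± 1.51 (0.80). RGMB, a ligand of the netrin receptor neogenin, fell (124 ± 1.95 against 166 ± 4.22 TPM), as did TRIO, an exchange factor (43.7 ± 2.61 against 52.1 ± 4.16), with an adjusted p of up to 0.202 under the alternatives. Called genes made up 42.9%, 57.1%, 50% and 57.1% of these lists, in the order given, where 49.6% of all tested genes were called.

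The 24 members under 1 TPM included EPHA5 and UNC5D, which were listed at 0 in all libraries. By family they were 6 of 20 semaphorins, 1 of 11 plexins and neuropilins (PLXNA4), 1 of 3 slits (SLIT1), 4 of 8 ephrins, 6 of 14 Eph receptors, 3 of 4 netrins and 3 of 4 UNC5 receptors. The nearest below the filter were SEMA4A (mean of 0.731 TPM over the 6 libraries, 0.299 in 4-OHT and 1.16 in DMSO), NTN1 (0.501) and SEMA6A (0.454). The nearest above were SEMA4D (1.05), SLIT3 (1.25) and PLXNC1 (1.46).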

How the data were processed

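The values were taken as deposited by the authors: TPM per gene symbol, 59050 entries in 6 libraries, each column summing to 998367 to 998843. The submitters' processing notes name GRCh38, StringTie, STAR and Trim Galore 0.6.6. Annotation, strand setting and scaling between libraries: not given in the sources used here. In the deposited column of DMSO replicate 3, 1 value below 0 was set to 0. Read depth cannot be recovered from TPM and is unknown. Library preparation started, per the labels, from 1 µg of RNA.

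The 3 4-OHT and 3 DMSO libraries were compared by limma 3.58.1 (R 4.3.3, variance trend) on log2(TPM + 1), for entries whose mean reached 1 TPM, 2-sided, with Benjamini-Hochberg adjustment over 15272 genes and a threshold of 0.05. Positions come from GENCODE 29 and promoters from RefSeq. Python 3.11.15, pandas 2.3.3 and matplotlib 3.10.9 were used for tables and plots. Alternatives changed the pseudocount, filter, scaling, variance trend, replicate block and set of libraries.

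All 6 values are given for called members with a log2 fold change of at least 1 in size and for members on which a ligand and receptor comparison turns. From each partner list the 2 largest called changes in each direction are named, as well as ITGB1 and NEO1, chosen after their values were seen. Marker lists of 7 kinds of cells were read, and MCAM is not analysed here. The members and lists were chosen with earlier results of these data known.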

Additional observations from a re-analysis of the deposited data

How the results depend on the processing

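The number of guidance genes called higher ranged from 12 to 15 and of those called lower from 12 to 17 over 13 alternative settings. Leaving out a library in turn gave 12 to 13 higher and 15 to 17 lower. Of the 30 called members, 24 kept their call and direction in every alternative that tested them. The exceptions were SEMA4B, SEMA5A, NRP2, PLXNB1, PLXND1 and ROBO3. Lower calls made up 60.2% of all called genes as deposited, 47.1% under median-of-ratios scaling, which shifted the log2 fold changes of all genes by a median of 0.113, and 49.7% under quantile normalization (shift 0.131). No called member changed direction under these. With the replicate block, 12 guidance genes were higher and 17 lower, the call of SEMA5A being lost (adjusted p = 0.0603). Same-numbered libraries correlated at 0.047, 0.005 and 0.007 in their deviations from the group means, and other pairs at -0.057 to 0.05. Over all genes the numbers thus gave no sign of pairing, which does not exclude it for single genes. With the block the SE of NTN4 went from 0.306 to 0.0859, and that of EPHA1 from 0.153 to 0.182. Since TPM keep no depth, members near 1 TPM, such as SLIT3 and PLXNC1, have an unknown counting error.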
